A study of Homo sapiens with 14 samples.

Results

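The miR-188 to miR-660 cluster is a run of 8 miRNA hairpins on the X chromosome inside CLCN5, a gene that encodes a chloride and proton exchanger of endosomes. The 10 members described here were chosen by name: hsa-miR-532-5p, hsa-miR-532-3p, hsa-miR-188-3p, hsa-miR-500a-5p, hsa-miR-500a-3p, hsa-miR-362-5p, hsa-miR-362-3p, hsa-miR-501-3p, hsa-miR-660-5p and hsa-miR-502-3p (the prefix for human is left out below), of 2848 entries in the count table. They had been proposed with measured results of these libraries in view, in the first place the difference between proanthocyanidins and vehicle at 12 h. Every value at 12 h is therefore a description with no test, and only comparisons without a 12 h group were tested. The cells were PANC-1, an established line from a human pancreatic ductal carcinoma, and the labels name no genetic change in any group. Grape proanthocyanidins (PA), which are chains of linked flavan-3-ol units, were given at 20 µg/ml for 3, 12 or 24 h. The vehicle DMSO was given for 0, 3, 12 or 24 h. Each of the 7 groups had 2 small RNA libraries, A and B, and nothing in the labels says that these came from separate cultures, so p-values measure the spread between libraries, which may be technical.

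An intronic miRNA cluster is usually cut out of one long primary transcript. Drosha releases the hairpins and Dicer trims each to a duplex of a 5p and a 3p arm, of which an Argonaute protein keeps one. Arms of one cluster can therefore start from the same transcript and still differ in level, because cutting, strand choice and decay act on each hairpin and arm. Bases 2 to 8 of the mature arm, the seed, pair with target mRNAs, and arms with the same seed can share targets. Reported targets of these miRNAs, all from other human studies, are CYLD, a deubiquitinase that restrains NF-kB, for miR-362-5p, the transcription factor RUNX3 for miR-532-5p, and MDM2, the ubiquitin ligase of p53, for miR-660-5p.

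The 8 hairpins lie on the plus strand in the order MIR532, MIR188, MIR500A, MIR362, MIR501, MIR500B, MIR660 and MIR502. They run from X:50003148 to 50014683 in GRCh38, a span of 11536 bases. In GENCODE 29 the host CLCN5 has 9 transcripts between 49922615 and 50099235. The hairpins sit in one intron of 117001 bases (X:49925315 to 50042315), which is intron 3 or intron 2 of the 3 transcripts that span them. None overlaps an exon of the host. MIR532 and MIR188 are 264 bases apart, then 4842 bases separate MIR188 from MIR500A. The gaps within the run MIR500A, MIR362, MIR501 and MIR500B are 449, 693 and 866 bases. MIR660 follows after 2490 bases and MIR502 after a further 1260.

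RefSeq (GRCh38.p14) gave the mature sequence of 9 of the 10 members. They are shown because their likeness decides which arms share a seed and which could share reads. Capitals mark the seed, 5′ to 3′.
miR-532-5p: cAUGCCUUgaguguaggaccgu
miR-532-3p: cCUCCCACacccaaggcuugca
miR-188-3p: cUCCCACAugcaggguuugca
miR-500a-5p: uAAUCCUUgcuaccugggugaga
miR-500a-3p: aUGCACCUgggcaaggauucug
miR-362-5p: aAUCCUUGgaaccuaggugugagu
miR-362-3p: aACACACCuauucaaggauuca
miR-501-3p: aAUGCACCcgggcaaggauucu
miR-502-3p: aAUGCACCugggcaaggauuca
The 9 arms carry 8 different seeds. miR-501-3p and miR-502-3p share the seed AUGCACC and differ by the substitutions C9U and U22A, counted from 1 at the 5′ end with miR-501-3p first. miR-500a-3p and miR-502-3p share a run of 20 bases, offset by 1 base, so the same letters give 2 different seeds. miR-532-3p and miR-188-3p share a run of 8 bases, also offset by 1 base. The seed of miR-362-3p is the seed of miR-329-3p, which comes from another chromosome. How reads that match several arms were assigned is not given in the sources used here, so levels within the trio miR-500a-3p, miR-501-3p and miR-502-3p are uncertain to that extent.

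The whole MIR362 hairpin, chrX:50008964-50009028 on the plus strand of GRCh38.p14, is shown because its arms parted most in the vehicle libraries at 12 h. Capitals mark the 5p arm and then the 3p arm.
MIR362: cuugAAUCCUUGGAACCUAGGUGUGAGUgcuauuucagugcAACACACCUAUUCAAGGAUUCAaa

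Depth was 1032391 to 3111014 counts per library, and the 10 members together took 0.245% to 0.398% of a library. Levels below are in CPM, each count scaled to its library total times a TMM factor. The counts of libraries A and B differed by more than sampling noise in every group, with a chi-square over degrees of freedom of 16.2 to 104. DMSO 12 h stood at the top of that range and had the lowest Spearman correlation between A and B, 0.925 against 0.942 to 0.976 in the other groups. The carcinoma-line miRNAs miR-21-5p and miR-100-5p summed to 256346 to 342807 CPM. The 5 epithelial miR-200 family members summed to 53.4 to 85.8 CPM in PA and 50.02 to 81.2 CPM in DMSO libraries. Acinar markers reached at most 4.55 CPM and haematopoietic markers at most 6.37 CPM. The 5 fibroblast and endothelial markers, all detected, summed to 501 to 705 CPM in PA libraries and 394 to 858 CPM in DMSO libraries. The DMSO 12 h libraries held the low end of that range, 394 and 439.7 CPM, and their epithelial sums, 50.02 and 55.7 CPM, were at the low end too. miR-126-3p made up most of the fibroblast and endothelial sum. Its mean log2 CPM was 9.17, against 4.39 for miR-143-3p, 3.55 for miR-199a-5p and 1.59 for miR-145-5p. The sum hides larger differences of these scarcer markers. From the mean of DMSO at 0, 3 and 24 h, DMSO 12 h differed in log2 by -0.61 for miR-126-3p. The difference was -3.57 for miR-143-3p, -3.14 for miR-199a-5p and -6.89 for miR-145-5p, which is close to the floor. The part of all these marker lists in the results below was not tested.

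All 10 members passed the filter on low counts, as did 3 of the other 6 arms of the cluster. Averaged over the 14 libraries, hsa-miR-532-5p was the most abundant at 643 CPM, followed by hsa-miR-501-3p at 605 CPM and hsa-miR-362-5p at 596 CPM. These ranked 104, 109 and 110 among all entries. A middle tier held miR-660-5p at 336, miR-500a-3p at 316 and miR-502-3p at 281 CPM. miR-362-3p at 173, miR-532-3p at 159, miR-188-3p at 88.5 and miR-500a-5p at 64.7 CPM completed the list. Neighbours in this order overlapped in their ranges over the libraries. The members were also the 10 most abundant of the cluster's 16 arms: the first arms outside the list were miR-660-3p at 23.9, miR-188-5p at 21.8 and miR-501-5p at 16.4 CPM. miR-500b-3p had 15 counts over all libraries, miR-502-5p had 2 and miR-500b-5p had 1. The sequence of miR-500b-5p, aAUCCUUGcuaccugggu, lies wholly inside that of miR-500a-5p, so a read of that length could belong to either.

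**Figure D1:**
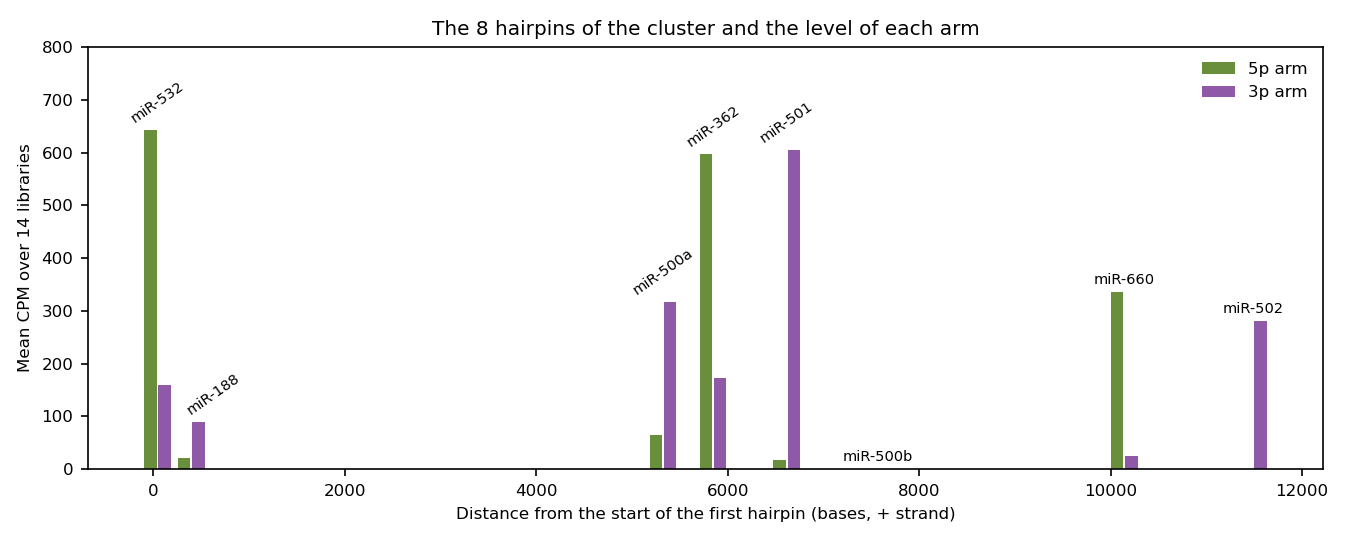
Mean CPM over the 14 libraries (y axis) of the 5p (green) and 3p (purple) arm of each hairpin, placed by distance in bases from the start of the first hairpin (x axis); bars are drawn wider than the arms. miR-532, miR-362 and miR-660 give mostly the 5p arm, miR-188, miR-500a, miR-501 and miR-502 mostly the 3p arm, and miR-500b is close to 0.

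The leading arm differed between hairpins of the run. The 5p arm led in miR-532, miR-362 and miR-660, and the 3p arm led in miR-188, miR-500a, miR-501 and miR-502. The log2 ratio of 3p to 5p, with 1 CPM added to each arm, ran from -4.42 to -3.43 over the group means of miR-660 and from 4.44 to 5.88 over those of miR-501. The 6 hairpins with both arms tested kept the side of their leading arm in every group mean.

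The members varied by very different amounts over the libraries. miR-532-5p spanned 581 to 719 CPM, a 1.24-fold range, and lies first in the run. miR-502-3p, which lies last, spanned 203 to 339 CPM, a 1.67-fold range. miR-362-3p spanned a 4.13-fold range and miR-188-3p a 4.72-fold range.

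The first set of members was lowest in the vehicle at 12 h. miR-362-3p, whose seed miR-329-3p shares, had 187 and 187 CPM at PA 3 h, 198 and 194 CPM at PA 12 h, and 186 and 150.5 CPM at PA 24 h. Its DMSO libraries had 226 and 175 CPM at 0 h, 197 and 216 CPM at 3 h, 78.5 and 54.6 CPM at 12 h, and 218 and 159 CPM at 24 h. Both DMSO 12 h libraries were below all other 12 libraries, and all PA libraries but B of PA 24 h lay within the range of the other DMSO libraries.

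miR-188-3p, the leading arm of its hairpin, had 78.1 and 92.1 CPM at PA 3 h, 108 and 132 CPM at PA 12 h, and 146 and 95.0 CPM at PA 24 h. In DMSO it had 73.7 and 71.5 CPM at 0 h, 73.7 and 78.9 CPM at 3 h, 49.5 and 30.9 CPM at 12 h, and 104.5 and 104.4 CPM at 24 h. The DMSO 12 h libraries were again the lowest, and the PA 12 h libraries exceeded every DMSO library.

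miR-532-3p had 155 and 191 CPM at PA 3 h, 194 and 176 CPM at PA 12 h, and 151 and 165 CPM at PA 24 h. Its DMSO libraries had 208 and 178 CPM at 0 h, 154 and 140.3 CPM at 3 h, 100.1 and 90.03 CPM at 12 h, and 175 and 154 CPM at 24 h. The low DMSO 12 h values stood beside steady levels of the other arm of the same hairpin, miR-532-5p, which had 602 and 581 CPM in those libraries.

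miR-660-5p had 324 and 369.7 CPM at PA 3 h, 370.1 and 358 CPM at PA 12 h, and 394 and 334 CPM at PA 24 h. In DMSO it had 372 and 321 CPM at 0 h, 359.8 and 386 CPM at 3 h, 237 and 178 CPM at 12 h, and 349.7 and 348 CPM at 24 h. Apart from DMSO 12 h, its 12 libraries kept within 321 and 394 CPM.

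miR-500a-5p had 80.6 and 74.8 CPM at PA 3 h, 77.6 and 63.3 CPM at PA 12 h, and 73.0 and 58.0 CPM at PA 24 h. In DMSO it had 65.7 and 64.9 CPM at 0 h, 71.0 and 75.4 CPM at 3 h, 33.0 and 46.4 CPM at 12 h, and 64.8 and 57.6 CPM at 24 h. It is the less abundant arm of miR-500a, and here too DMSO 12 h held the lowest libraries.

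A second set was highest in PA at the later times. miR-501-3p had 509 and 588 CPM at PA 3 h, 591 and 1002 CPM at PA 12 h, and 1081 and 688 CPM at PA 24 h. Its DMSO libraries had 485 and 564 CPM at 0 h, 433 and 537 CPM at 3 h, 505 and 470.2 CPM at 12 h, and 554 and 459.7 CPM at 24 h. DMSO 12 h did not stand apart for this arm, and all 4 PA libraries of 12 and 24 h exceeded all 8 DMSO libraries.

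miR-500a-3p, which differs from miR-502-3p by an offset of 1 base at its 5′ end and by its 3′ end, had 267 and 314 CPM at PA 3 h, 317 and 447 CPM at PA 12 h, and 511 and 381 CPM at PA 24 h. In DMSO it had 243 and 302 CPM at 0 h, 286 and 319 CPM at 3 h, 252 and 206 CPM at 12 h, and 302 and 278 CPM at 24 h. The PA 24 h libraries exceeded all 8 DMSO libraries, and one PA 12 h library did.

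miR-362-5p, the leading arm of its hairpin, had 612 and 576 CPM at PA 3 h, 711 and 659.9 CPM at PA 12 h, and 946 and 675 CPM at PA 24 h. In DMSO it had 535 and 514 CPM at 0 h, 604 and 541 CPM at 3 h, 320.2 and 517 CPM at 12 h, and 544 and 595 CPM at 24 h. The PA libraries of 12 and 24 h exceeded all 8 DMSO libraries, and DMSO 12 h library A alone was far below the rest.

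The remaining members varied least. miR-532-5p had 633 and 685 CPM at PA 3 h, 615 and 678 CPM at PA 12 h, and 678 and 719 CPM at PA 24 h. In DMSO it had 669 and 634 CPM at 0 h, 675 and 606 CPM at 3 h, 602 and 581 CPM at 12 h, and 587 and 634 CPM at 24 h. miR-502-3p, the seed partner of miR-501-3p, had 305 and 305 CPM at PA 3 h, 277 and 237 CPM at PA 12 h, and 327 and 285 CPM at PA 24 h. Its DMSO libraries had 297 and 305 CPM at 0 h, 339 and 335 CPM at 3 h, 203 and 233 CPM at 12 h, and 213 and 279 CPM at 24 h. It did not share the high PA values of miR-501-3p. The share of all entries whose PA libraries exceeded every DMSO library, as for single members above, was not counted. Nor was the share whose DMSO 12 h libraries lay below every other library. These orders also use the 12 h libraries, which bear on the choice of members, so nothing is read from them.

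**Figure D2:**
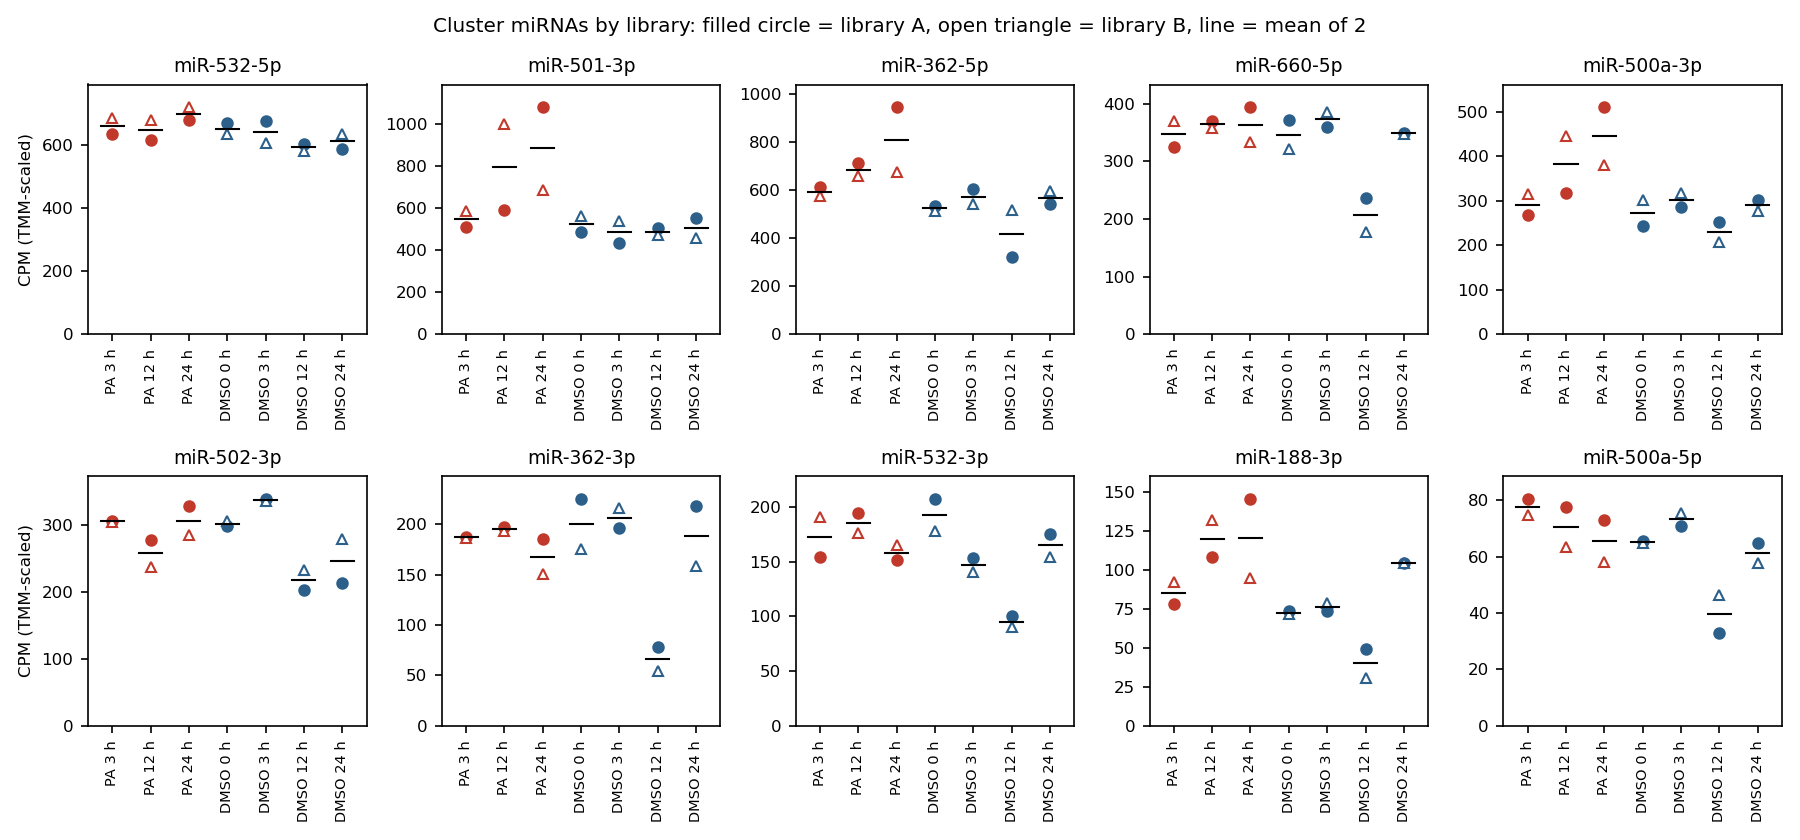
CPM of each member (y axis, from 0) in each of the 14 libraries by group (x axis), PA in red and DMSO in blue, with library A as a filled circle, B as an open triangle and a line at the mean of 2. miR-362-3p, miR-188-3p, miR-532-3p, miR-660-5p and miR-500a-5p have their lowest libraries in DMSO 12 h, while miR-501-3p, miR-500a-3p and miR-362-5p have their highest in PA at 12 or 24 h.

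Summed over the 10 members, the level was 3267 ± 163 CPM at PA 3 h, 3704 ± 345 at PA 12 h and 4021 ± 667 at PA 24 h (SD, n = 2 each). In DMSO the sum was 3152 ± 31.4 CPM at 0 h, 3214 ± 29.8 at 3 h, 2394 ± 19.2 at 12 h and 3091 ± 30.5 at 24 h. The sums of the 6 DMSO libraries outside 12 h thus stayed close together, while the PA sums spread more widely between A and B. The sum is led by the 3 most abundant members, miR-532-5p, miR-501-3p and miR-362-5p. A lower level in these bulk RNA samples can come from fewer cells with the miRNA or from less of it per cell, which cannot be told apart.

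At 12 h all 10 members were higher in PA than in DMSO, with a median log2 fold change of 0.77 beside -0.06 over all 810 entries tested. The largest were miR-188-3p at 1.56 ± 0.26 (SE of the edgeR fit) and miR-362-3p at 1.54 ± 0.23. miR-532-3p stood at 0.96 ± 0.19, miR-500a-5p at 0.84 ± 0.24 and miR-660-5p at 0.81 ± 0.18. miR-500a-3p at 0.73 ± 0.21, miR-362-5p at 0.72 ± 0.21 and miR-501-3p at 0.71 ± 0.25 followed. miR-502-3p at 0.24 ± 0.18 and miR-532-5p at 0.13 ± 0.15 were the smallest. The libraries of all 10 members did not overlap between the groups, where 25.3% of all entries did the same in this direction. Because this contrast chose the members, nothing is read from these counts.

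Which side of the 12 h contrast stood away from the remaining vehicle libraries differed between members. Against the mean of DMSO at 0, 3 and 24 h, DMSO 12 h was lower by a median log2 difference of -0.59 over the members, beside 0.03 over all entries. The values were -1.56 ± 0.20 for miR-362-3p, -1.03 ± 0.23 for miR-188-3p, -0.81 ± 0.16 for miR-532-3p, -0.77 ± 0.15 for miR-660-5p and -0.76 ± 0.21 for miR-500a-5p. These 5 members had both DMSO 12 h libraries below all 6 other DMSO libraries, which 13.2% of all entries did. miR-501-3p, at -0.05 ± 0.20, and miR-532-5p, at -0.10 ± 0.12, lay within 1 SE of that mean. miR-502-3p at -0.43 ± 0.15, miR-362-5p at -0.41 ± 0.18 and miR-500a-3p at -0.33 ± 0.18 lay between these sets.

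PA 12 h, set against the same mean of DMSO at 0, 3 and 24 h, had a median log2 difference of 0.12 over the members and -0.01 over all entries. It was 0.66 ± 0.19 for miR-501-3p, 0.53 ± 0.19 for miR-188-3p, 0.41 ± 0.17 for miR-500a-3p and 0.30 ± 0.17 for miR-362-5p. miR-362-3p, with -0.02 ± 0.17, and miR-660-5p, with 0.03 ± 0.14, were close to 0. Both PA 12 h libraries lay above all 6 of these DMSO libraries for 3 members, miR-501-3p, miR-188-3p and miR-362-5p, which 5.8% of all entries did. By these ranges miR-362-3p, miR-660-5p, miR-532-3p and miR-500a-5p stood away in DMSO 12 h, miR-501-3p and miR-362-5p in PA 12 h, and miR-188-3p in both. miR-500a-3p, miR-502-3p and miR-532-5p stood away in neither. The split is not clean, as DMSO 12 h was also lower for miR-502-3p, at -0.43, miR-362-5p, at -0.41, and miR-500a-3p, at -0.33. Over the 597 of 682 named entries with a sequence, the log2 difference of DMSO 12 h from that mean correlated with GC content of the mature arm at Pearson r = 0.26 and with mean log2 level at -0.13, across entries that are not independent. The part of base composition in the members' values was not tested.

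**Figure D3:**
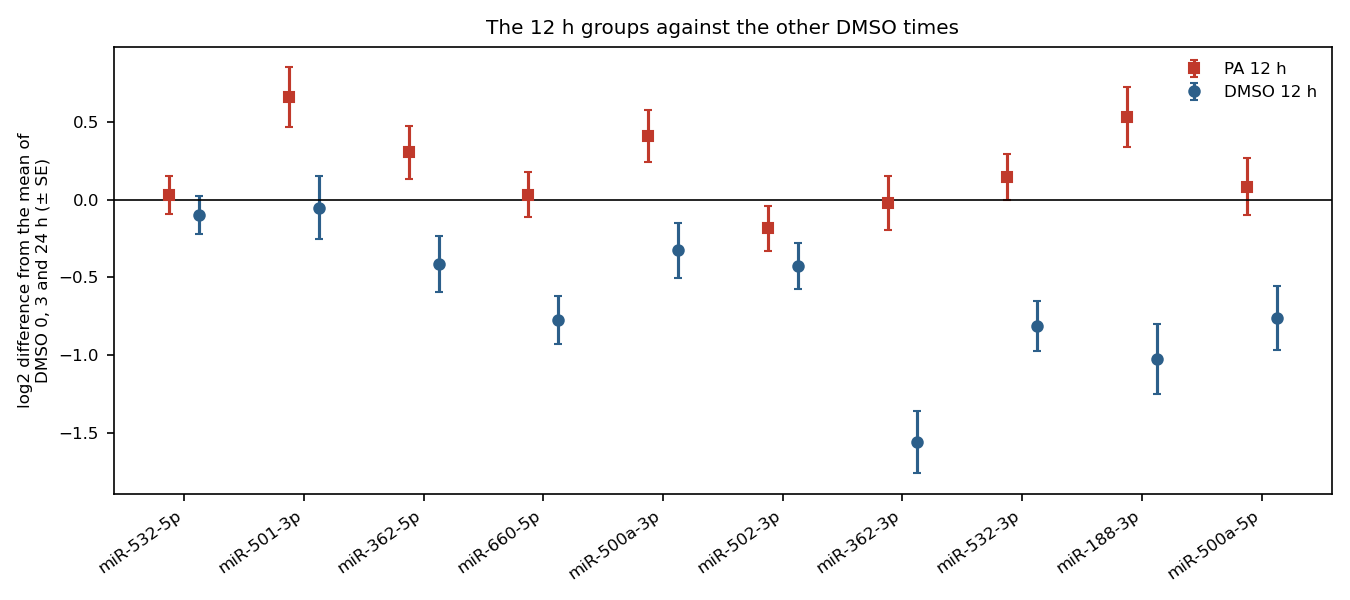
log2 difference ± SE (y axis) of PA 12 h (red squares) and DMSO 12 h (blue circles) from the mean of DMSO at 0, 3 and 24 h, for each member (x axis). miR-362-3p lies near 0 in PA 12 h but at -1.56 in DMSO 12 h, whereas the PA 12 h point of miR-501-3p is at 0.66 and its DMSO 12 h point at -0.05.

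The contrast at 24 h compares neither 12 h group, although the 12 h libraries enter the filter, scaling and spread of the same fit. At 24 h, 8 of 10 members were higher in PA, as were 49.5% of all entries. The median log2 fold change was 0.21, beside -0.01 over all entries. Against the mean of DMSO at 0 and 3 h instead, PA 24 h had a median of 0.07 over the members, beside 0.04 over all entries, with 6 members higher and 4 lower. None passed edgeR's quasi-likelihood test with Benjamini-Hochberg adjustment, where 6.67% of all entries passed. That share rests on 54 calls, which numbered 12 without DMSO 24 h library A, 13 without DMSO 24 h library B and 31 without PA 24 h library B. miR-501-3p, reported in neurons to target an AMPA receptor subunit, had the largest value, 0.81 ± 0.25 (adjusted p = 0.0606). miR-500a-3p followed at 0.62 ± 0.21 (adjusted p = 0.0877) and miR-362-5p at 0.51 ± 0.21 (adjusted p = 0.178). These 3 had an unadjusted edgeR p under 0.05, as did 20.9% of all entries. With both DMSO 12 h libraries left out of the fit, edgeR called 73 entries and 0 members, with a lowest adjusted p of 0.0523. DESeq2 called 1 member, miR-501-3p, with an adjusted p of 0.0217, among 61 entries called in all. Without PA 24 h library B, edgeR called 2 members, miR-501-3p at 1.118 and miR-500a-3p at 0.84. It called miR-501-3p alone without library A or without library B of PA 12 h. Without PA 24 h library A the value of miR-501-3p was 0.46, that of miR-500a-3p 0.41 and that of miR-362-5p 0.26.

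The other members at 24 h were smaller. miR-502-3p stood at 0.32 ± 0.18, miR-188-3p at 0.22 ± 0.24, miR-532-5p at 0.19 ± 0.15, miR-500a-5p at 0.11 ± 0.23 and miR-660-5p at 0.06 ± 0.18. miR-532-3p had -0.06 ± 0.18 and miR-362-3p -0.16 ± 0.21, the lowest of the list, while the other arm of its own hairpin was among the highest. miR-502-3p stood at 0.15 without DMSO 24 h library A and at 0.55 without DMSO 24 h library B. The sign of 5 of these values turned when 1 library was left out. Without PA 24 h library A, miR-188-3p stood at -0.12, miR-500a-5p at -0.058 and miR-660-5p at -0.045. Without DMSO 24 h library A, miR-362-3p stood at 0.10 and miR-532-3p at 0.048. Scaling by total counts, which moved the median of all entries to -0.19, put miR-500a-5p at -0.083 and miR-660-5p at -0.12. The PA and DMSO libraries of 24 h did not overlap for 5 members, all higher in PA: miR-501-3p, miR-500a-3p, miR-362-5p, miR-502-3p and miR-532-5p. Over all entries, 25.6% did not overlap and were higher in PA. Both PA 24 h libraries lay above the 6 DMSO libraries of 0, 3 and 24 h for 4 members, miR-501-3p, miR-500a-3p, miR-362-5p and miR-532-5p, which 10.9% of all entries did.

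At 3 h, log2 fold changes of PA over DMSO ran from -0.14 for miR-502-3p to 0.23 for miR-532-3p, with a median of 0.05. Of the members, 0 passed edgeR's test, 0 had an unadjusted p under 0.05 and 0 were called by DESeq2. Over all entries, 0.247% passed, which is 2 calls, and 1 or 2 with any 1 library left out. The SE of these values was 0.15 to 0.25, so a change of the size seen for miR-532-5p at any time was not detectable at 3 h. Larger changes could be missed too, as miR-501-3p at 0.81 ± 0.25 did not pass at 24 h.

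**Figure D4:**
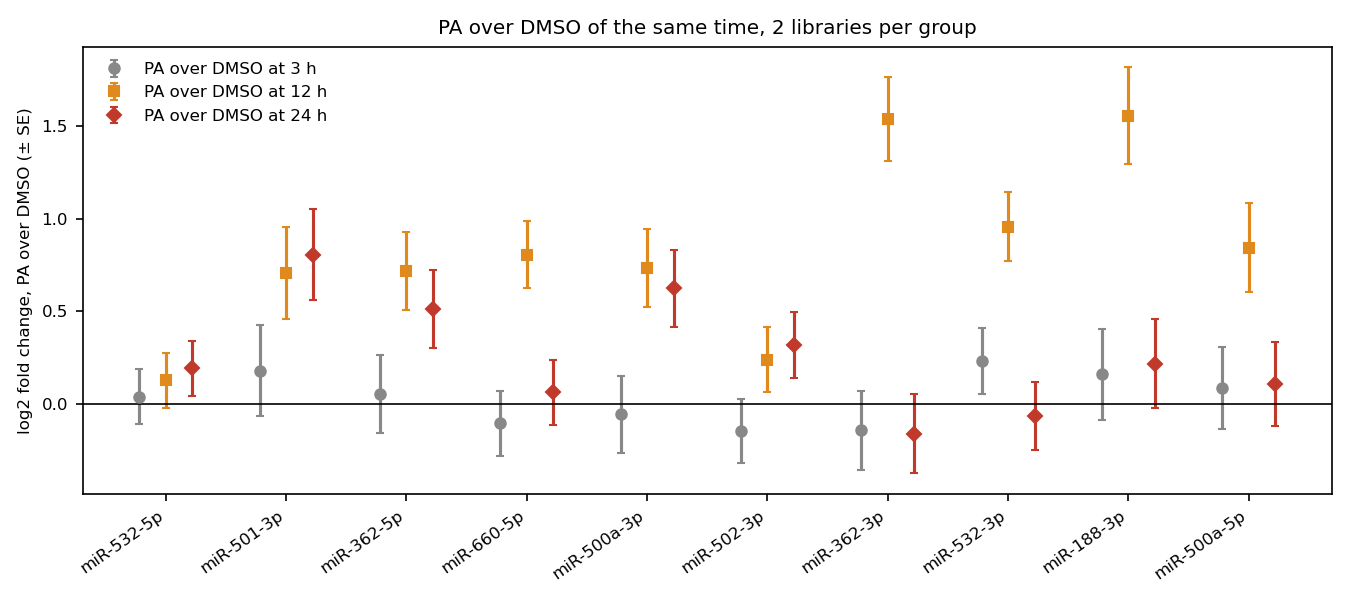
log2 fold change of PA over DMSO of the same time ± SE (y axis) for each member (x axis) at 3 h (grey circles), 12 h (orange squares) and 24 h (red diamonds). At 3 h the values sit between -0.14 and 0.23, and at 24 h miR-501-3p, miR-500a-3p and miR-362-5p sit at 0.81, 0.62 and 0.51 while miR-362-3p, at 1.54 at 12 h, sits at -0.16.

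Within PA, 24 h over 3 h shares no vehicle library. miR-501-3p had a log2 fold change of 0.69 ± 0.25 (adjusted p = 0.146) and miR-500a-3p of 0.62 ± 0.21 (adjusted p = 0.117). miR-188-3p had 0.51 ± 0.24 (adjusted p = 0.268) and miR-362-5p 0.45 ± 0.21 (adjusted p = 0.255). In edgeR, 3 members had an unadjusted p under 0.05, as did 18.6% of all entries. Of the members, 0 passed, against 3.95% of all entries. Without PA 3 h library A the 32 calls behind that share numbered 1 and the members with an unadjusted p under 0.05 numbered 0. Calls numbered 6 without PA 3 h library B, 16 without PA 24 h library B and 49 without DMSO 12 h library B, and without PA 24 h library A again 0 members had such a p. DESeq2 called 0. miR-500a-5p, the lower arm of miR-500a, had -0.23 ± 0.23, so the arms of this hairpin differed in sign without either passing.

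The difference between the PA effects at 24 h and 3 h was tested in the same fit. It ran from -0.30 for miR-532-3p to 0.68 ± 0.29 for miR-500a-3p (adjusted p = 0.355). In edgeR, 1 member had an unadjusted p under 0.05, as did 12.5% of all entries. Of the members, 0 passed, against 1.23% of all entries. The 10 calls behind that share ranged from 3 to 19 when 1 library was left out, with 19 without PA 24 h library A. Without either DMSO 24 h library, PA 24 h library B or PA 3 h library A they numbered 3, and without PA 3 h library B or DMSO 3 h library A 4. DESeq2 called 0. A PA effect that differs between 3 and 24 h is thus not shown for any member.

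Change with time was also tested among the vehicle libraries outside 12 h, and no member passed. DMSO 3 h over DMSO 0 h ran from -0.39 ± 0.18 for miR-532-3p (adjusted p = 0.548) to 0.16 for miR-500a-5p. Of the members, 0 passed edgeR's test and 1 had an unadjusted p under 0.05, where 0% of all entries passed and 70 of 810 had such a p. DMSO 24 h over DMSO 0 h ran from -0.29 ± 0.18 for miR-502-3p to 0.52 ± 0.25 for miR-188-3p (adjusted p = 0.287). Here 0 members had an unadjusted edgeR p under 0.05, beside 17.8% of all entries. Of the members, 0 passed, against 3.58% of all entries. The 29 calls behind that share numbered 10 without either DMSO 24 h library, 17 without DMSO 0 h library B, 18 without DMSO 0 h library A and 19 without PA 3 h library A. They numbered 45 without PA 24 h library B, 50 without DMSO 12 h library A and 48 without DMSO 12 h library B. DESeq2 called 0 members in both contrasts. miR-188-3p, the member with the widest range over all libraries, was thus also the one with the largest value between the vehicle at 24 h and at 0 h.

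The arms of a hairpin start in equal numbers. Their measured ratio can reflect steps after cutting as well as how reads were captured and assigned, which was not tested. For miR-188 the log2 ratio of 3p to 5p was 2.23 and 2.25 at PA 3 h, 1.95 and 3.20 at PA 12 h, and 2.92 and 3.01 at PA 24 h. In DMSO libraries A and B of 0 h it was 1.61 and 1.64, in those of 3 h 1.60 and 1.27, in those of 12 h 1.31 and 0.32, and in those of 24 h 1.91 and 1.88. The 6 PA libraries lay above the 8 DMSO libraries, which 0.617% of the 162 hairpins tested did, this one alone. Without the 12 h groups, which bear on the choice of members, 1.23% separated in this way, miR-188 and 1 other. This comparison of all libraries was made after the values of miR-188 had been seen and carries no test. Only its direction was counted, and hairpins with every PA library below every DMSO library were not. At 24 h the difference was 1.07 ± 0.44 (limma adjusted p = 0.263), and at 3 h it was 0.80 ± 0.44 (adjusted p = 0.9996). The lower arm, miR-188-5p, had 15.9 and 18.6 CPM at PA 3 h and 18.4 and 10.9 at PA 24 h, against 23.7 and 32.2 at DMSO 3 h and 27.1 and 27.7 at DMSO 24 h. Its log2 fold change was -0.68 ± 0.35 at 3 h (edgeR adjusted p = 1) and -0.84 ± 0.36 at 24 h (edgeR adjusted p = 0.203), neither passing. With 13 to 66 counts per library, miR-188-5p sets the precision of this ratio.

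The arms of miR-362 drew apart in the other direction. The log2 ratio of 3p to 5p was -1.70 and -1.62 at PA 3 h, -1.84 and -1.76 at PA 12 h, and -2.34 and -2.16 at PA 24 h. In DMSO libraries A and B of 0 h it was -1.24 and -1.55, in those of 3 h -1.61 and -1.32, in those of 12 h -2.01 and -3.22, and in those of 24 h -1.31 and -1.90. The PA 24 h libraries lay below the 6 DMSO libraries outside 12 h, and DMSO 12 h library B was the lowest of all. How many of all hairpins did the same was not counted, so nothing is read from this order. PA over DMSO at 24 h was -0.64 ± 0.35 (limma adjusted p = 0.389).

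Across the 6 hairpins with both arms tested, limma called 0 at 3 h and 0 at 24 h. Over all 162 such hairpins it also called 0% at both times. An unadjusted p under 0.05 was reached by 0 of the 6 and 1 of the 162 at 3 h, and by 1 of the 6 and 24 of the 162 at 24 h. The count-based test diffSpliceDGE of edgeR called 0 of the 6 at both times and 0 and 9 of the 162 at 3 and 24 h. At 24 h it gave 2 of the 6 an unadjusted p under 0.05, with a lowest adjusted p of 0.116. The remaining values at 24 h were 0.87 for miR-501, 0.52 for miR-500a, 0.06 for miR-660 and -0.25 for miR-532. In DMSO 12 h, set against DMSO at 0, 3 and 24 h with no test, the 3p arm lost ground in miR-362 by -1.13, in miR-188 by -0.83 and in miR-532 by -0.71. The ratio moved the other way in miR-500a, at 0.41, miR-501, at 0.28, and miR-660, at 0.15, and the median size over all hairpins was 0.48.

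**Figure D5:**
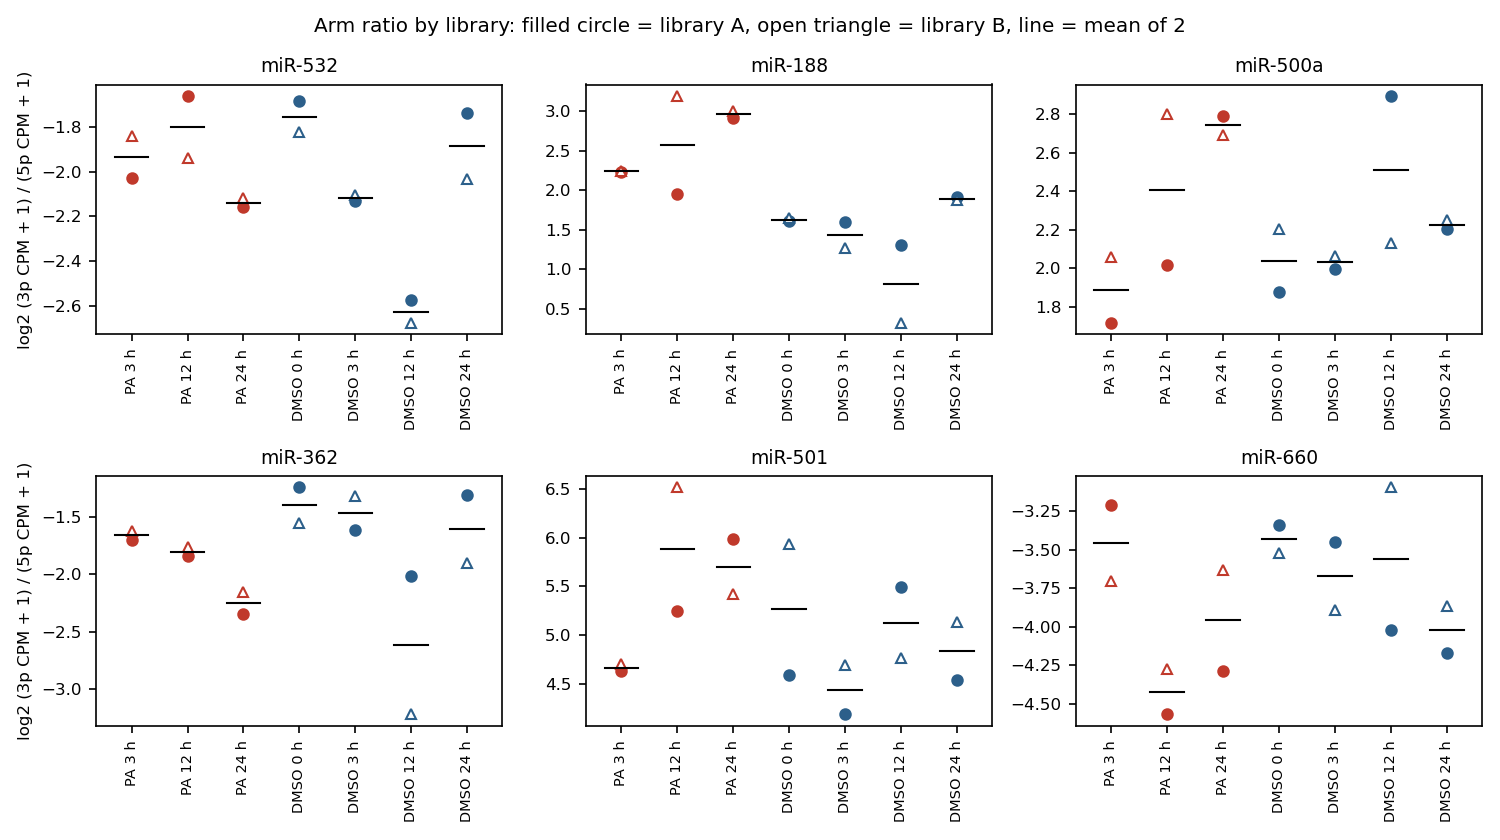
log2 ratio of 3p to 5p CPM, 1 CPM added to each (y axis, scaled per panel and not starting at 0), in each library by group (x axis) for the 6 hairpins with both arms tested. The 6 PA libraries of miR-188 lie between 1.95 and 3.20 and the 8 DMSO libraries between 0.32 and 1.91; for miR-362 the DMSO 12 h libraries lie at -2.01 and -3.22.

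Over the 14 libraries the 45 pairs of members correlated in log2 CPM with a median Pearson r of 0.55 (range 0.02 to 0.96), and all 45 were positive. Without DMSO 12 h the median was 0.13 over 12 libraries (range -0.46 to 0.95), and 25 of 45 were positive. Because the members were chosen on the contrast of PA 12 h with DMSO 12 h, the larger values with DMSO 12 h are fixed in part by that choice. The 12 libraries still hold PA 12 h, so the values without DMSO 12 h are not free of that choice either. The pair miR-500a-3p and miR-501-3p kept a high value, 0.91 with and 0.95 without DMSO 12 h, and these arms share a run of 13 bases. The pair miR-500a-3p and miR-502-3p, with the longer shared run of 20 bases, had 0.26 and -0.08. The other pairs among miR-188-3p, miR-362-5p, miR-500a-3p and miR-501-3p had 0.72 to 0.80 without DMSO 12 h. Their shared runs were 3 to 5 bases. The part of shared reads in these values was not tested. miR-362-3p and miR-660-5p had the highest value over 14 libraries, 0.96, and 0.50 without DMSO 12 h. The arms of miR-362 had 0.49 and -0.27. All these values share libraries, depth and scaling and are a description.

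Among tested entries outside the cluster, miR-23a-3p was closest to the mean profile of the members, centred on each member's own mean. Its r was 0.98 over 14 libraries and 0.92 over the 12 without DMSO 12 h. miR-27a-3p, from the same cluster as miR-23a, followed at 0.96 and 0.85, and miR-96-5p at 0.95 and 0.86. miR-561-5p had 0.93 and 0.64, miR-9-5p 0.91 and 0.88, miR-33a-5p 0.91 and 0.70, miR-9-3p 0.90 and 0.61, and miR-135a-5p 0.89 and 0.37. Arms of the CLCN5 cluster were left out of this ranking. The member profile rests in part on DMSO 12 h and PA 12 h, which bear on the choice of members. The 12 libraries without DMSO 12 h still hold PA 12 h. Without DMSO 12 h, r of a member with the mean of the others was -0.15 for miR-532-3p and miR-502-3p, and -0.12 for miR-362-3p. It was 0.09 for miR-500a-5p and 0.30 to 0.81 for the rest. Other miRNAs of the X chromosome, 21 tested of 26 listed, had median log2 fold changes of PA over DMSO of 0.04 at 3 h, -0.09 at 12 h and -0.07 at 24 h. At 24 h, 1 of these passed as higher in PA and 1 as lower.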

How the data were processed

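The authors deposited raw read counts per mature miRNA entry, and TPM values that differed from the scaled counts by at most 0.0205% for the members; only the counts were tested. The submitters' processing notes name bcl2fastq, Bowtie, edgeR and the build GRCh38. Their versions and roles, the handling of multi-mapping reads and the use of strand are not given in the sources used here. Each of the 28 value columns matched a library. In R 4.3.3, edgeR 4.0.16 (glmQLFit robust, quasi-likelihood F test, TMM, filterByExpr by group with minimum count 10 and total 15) fitted the 14 libraries by group and kept 810 entries, with p-values adjusted by Benjamini-Hochberg over all of them and a threshold of 0.05. Arm ratios used limma 3.58.1 over 162 hairpins. The edgeR and limma steps were tested on simulated data. DESeq2 1.42.0, other scalings, no filter, diffSpliceDGE for arms, a replicate block and left-out libraries were alternatives. The members, lists and alternatives were chosen with earlier results of these data known. All 10 members and the cluster's other arms are named, and the 8 entries outside it with the highest r to the mean member profile (prior count 2). The letters A and B are taken only as names of libraries. Entries without a human miRNA name numbered 502 of 2848. Intervals between libraries rest on 2 per group.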

Additional observations from a re-analysis of the deposited data

How the results depend on the processing

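No member was called in any tested comparison in the main edgeR fit. At 24 h the count of members called was 1 with no filter on low counts and 1 with DESeq2, miR-501-3p in both, and 0 to 2 when 1 library was left out: 1 without PA 12 h library A, 1 without PA 12 h library B and 2 without PA 24 h library B. With a replicate block it was 0, with a lowest adjusted p of 0.0845; same-letter libraries did not deviate together (r -0.17 to 0.11 over 21 pairs of groups, 1 above 0.1). At the other contrasts the count stayed 0 under every alternative run. The median of the 12 h description was 0.77 against DMSO 12 h and 0.12 against the mean of DMSO at 0, 3 and 24 h. Scaling by total counts shifted the median of all entries at 24 h to -0.19 and turned miR-500a-5p to -0.083 and miR-660-5p to -0.12. Leaving out 1 library moved the 24 h log2 fold change of miR-188-3p between -0.12 and 0.51, miR-362-3p between -0.35 and 0.10, miR-500a-5p between -0.058 and 0.28, miR-532-3p between -0.13 and 0.048 and miR-660-5p between -0.045 and 0.20; their signs are not fixed by these data. The causes were not tested. At 24 h DESeq2 called 61 entries in all, and edgeR with no filter on low counts also called 61. Over all entries, 24 h calls numbered 54, against 75 with total counts and 12 to 71 with 1 library left out. With only the groups compared in the fit, DMSO 24 h over 0 h gave 72 calls against 29, and DMSO 3 h over 0 h 17 against 0. With 2 libraries per group, the SE of the members' PA effects at 3 and 24 h was 0.15 to 0.25. In the main edgeR fit, values of 0.81 ± 0.25 for miR-501-3p and 0.62 ± 0.21 for miR-500a-3p at 24 h did not pass. Changes of that size or smaller could therefore be missed.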
